A study of Homo sapiens with 3 samples.

Results

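The genes of the RNA interference machinery were followed in H128 cells, an established human line of small cell lung cancer (SCLC). The set was chosen by function, not by a cut on expression, though with earlier results of these data known. It holds 10 genes of the 17448 in the deposited table: DROSHA, XPO5, DICER1, the 4 Argonaute genes AGO1, AGO2, AGO3 and AGO4, and the 3 TNRC6 genes TNRC6A, TNRC6B and TNRC6C. All 10 had at least 10 counts in at least 1 library and were kept among the 14031 genes analysed. The study asked what the nuclear receptor ERRγ, encoded by ESRRG, does in SCLC. H128 cells were transfected with a control siRNA (siCont) or with an siRNA against ESRRG, and their RNA was sequenced after 48 h. The libraries with an ESRRG siRNA carry the labels siERRG2 and siERRG3; which of the study's siRNA sequences went into which of them is not given in the sources used here. The labels name the control siCont and describe it as a vehicle siRNA, whereas the methods speak of vehicle alone. The study's results name transfection with siCont, and its siRNA list has an entry for siCont. Uptake was not measured.

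In RNA interference a small RNA guides an Argonaute protein to messages with a complementary site. MicroRNAs are cut from a primary transcript by DROSHA in the nucleus, exported by XPO5, cut again by DICER1 in the cytoplasm and loaded into an Argonaute, which recruits a TNRC6 (GW182) protein and, through it, the enzymes that shorten the poly(A) tail. A transfected siRNA enters at the Argonaute step, and it can also lower messages that pair only with its seed, the bases near its 5′ end.

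There was 1 library per condition. Differences between libraries therefore have no replicate check, no p-value is given, and the 95% exact binomial (Clopper-Pearson) intervals of a ratio of counts cover counting error only. Total counts were 19861937 (siCont), 19900580 (siERRG2) and 20016780 (siERRG3), and further counts follow in this order. ESRRG, the targeted gene, was at 806, 211 and 230 counts. The 7 neuroendocrine markers were abundant in every library, with 2486 to 22326 counts each, although INSM1 was at 10359, 5279 and 9168. The epithelial markers EPCAM, KRT8 and KRT18 were low, at 13 to 175 counts. Of the 6 markers of immune, endothelial and stromal cells, 5 were between 0 and 181 counts, with VWF at 0, 1 and 0, and COL1A2 was at 2043, 2896 and 2505. Less RNA per cell and fewer cells of a kind cannot be told apart in such bulk libraries.

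The main difference in the machinery was confined, at the 1.2-fold threshold that the study used, to DICER1 in both ESRRG libraries and AGO1 in siERRG3. AGO1 was 2.58-fold and DICER1 2.20-fold lower in siERRG3 than in siCont. DICER1 was also 1.26-fold lower in siERRG2, whereas AGO1 there was within its counting error of siCont. The genes of the nuclear steps, DROSHA and XPO5, and the other 3 Argonautes and all 3 TNRC6 genes stayed within 1.2-fold of siCont in both ESRRG libraries.

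Of the 10 genes, 1 was lower and 0 were higher in siERRG2, where 19.2% of all kept genes were at least 1.2-fold lower and 16.4% higher. In siERRG3, 2 were lower and 0 higher, against 25.1% and 23.2% of all kept genes. The number of genes past the threshold was thus not above the background in either library. Among the genes with a mean count in the range of the 10 genes, the background was lower, with 12.9% lower and 11.1% higher in siERRG2 and 23.8% and 17.4% in siERRG3. In both ESRRG libraries together 1 gene, DICER1, was lower and 0 were higher, with 7.88% and 7.26% of all kept genes in those classes, or 4.98% and 3.32% of the genes in the same range of counts. The median log2 fold change of the 10 genes was -0.02 in siERRG2 and -0.08 in siERRG3, beside medians of -0.00038 and -0.0033 over all kept genes. Both comparisons use the same siCont library.

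What set AGO1 and DICER1 apart was the size of their difference. Among the 7864 genes whose mean count lay within the range of the 10 genes, 36 (0.458%) had a log2 fold change in siERRG3 as low as that of AGO1 or lower, and 78 (0.992%) as low as that of DICER1 or lower. In all, 134 of these 7864 genes, 1.7%, were at least 2-fold lower in siERRG3, and AGO1 and DICER1 were among them. In siERRG2, 698 of them (8.88%) were as low as DICER1 or lower.

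**Figure D1:**
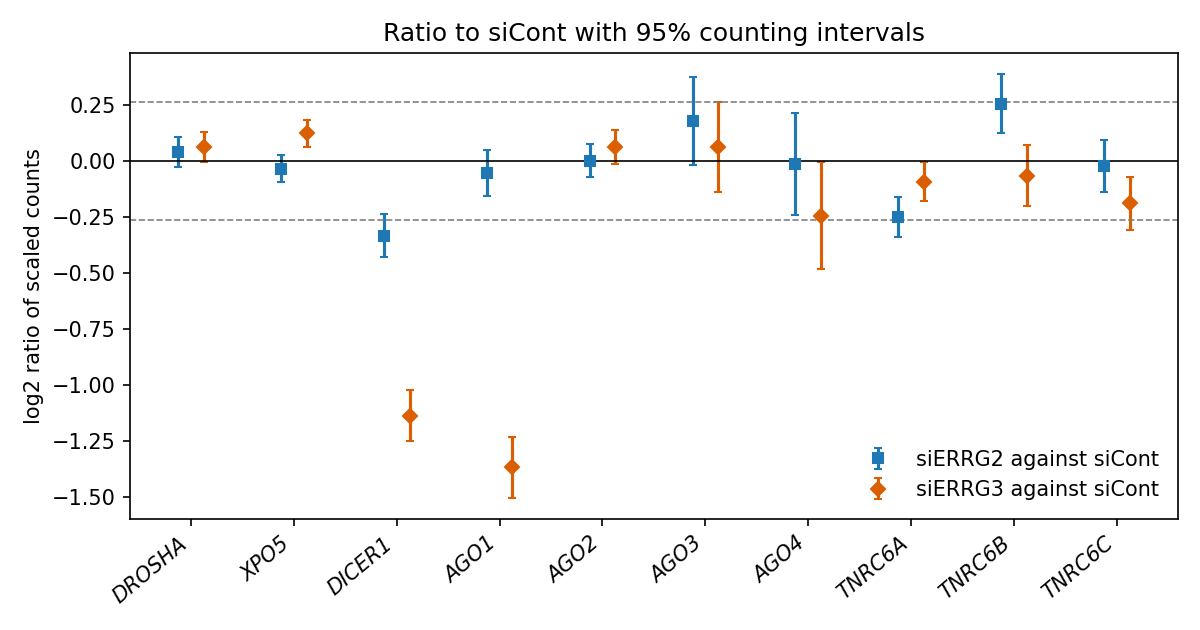
Ratio of TMM-scaled counts to siCont (y axis, log2) for the 10 RNA interference genes, with siERRG2 as squares and siERRG3 as diamonds. Bars are 95% counting intervals with 1 library per condition, and dashed lines mark a 1.2-fold difference. Only AGO1 (ratio 0.388) and DICER1 (ratio 0.455), both in siERRG3, lie below -1 on the log2 axis.

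DROSHA, the nuclear endonuclease that releases the hairpin from the primary transcript, lies on the minus strand of chromosome 5 (GRCh38.p14, chr5:31400494-31532093). It reached 3406 counts in siCont against 3543 in siERRG2 and 3619 in siERRG3. The 3 libraries lay close together, with ratios to siCont of 1.03 (0.981 to 1.08) and 1.04 (0.997 to 1.10). The gene C5orf22, which overlaps DROSHA in the table's coordinates, had 1083, 1302 and 1473 counts.

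XPO5, the exportin that carries hairpins out of the nucleus, lies on chromosome 6 (chr6:43522334-43576038, minus strand). It reached 4291 counts in siCont against 4239 in siERRG2 and 4756 in siERRG3, and was the most highly expressed of the 10 genes per length in every library. On the log2 scale it differed from siCont by -0.03 in siERRG2 and by 0.12 in siERRG3, where the ratio of 1.09 had an interval of 1.05 to 1.14. In siERRG3 it was therefore above siCont by more than counting error, but below the 1.2-fold threshold.

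DICER1, the ribonuclease that cuts the hairpin to the mature duplex, lies on the minus strand of chromosome 14 (chr14:95086228-95158010). It reached 1968 counts in siCont against 1580 in siERRG2 and 910 in siERRG3. The siCont library was the highest and siERRG3 the lowest, with siERRG2 between them. The ratio to siCont was 0.794 (0.742 to 0.848) for siERRG2 and 0.455 (0.420 to 0.492) for siERRG3, on the log2 scale -0.33 and -1.14. The ESRRG libraries also differed from each other, with siERRG3 1.75-fold lower than siERRG2 (ratio 0.573, 0.527 to 0.622). The protein partners of Dicer did not show such values. TARBP2 was at 337, 390 and 384 counts, PRKRA had 801, 804 and 754, and both stayed within 1.2-fold of siCont.

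DICER1 had the largest mean absolute log2 fold change of the 10 genes over both ESRRG libraries, 0.734, with AGO1 next at 0.708. Of the 4382 other genes whose mean count was within 2-fold of that of DICER1, the 3 nearest to its pair of log2 fold changes were AKAP2, NAPB and CD248, at distances of 0.046, 0.090 and 0.106. AKAP2, an anchoring protein for protein kinase A, had 1777, 1472 and 816 counts. NAPB, a SNAP protein of vesicle fusion, had 1036, 799 and 502, and the surface glycoprotein CD248 had 1565, 1280 and 777. Likeness here rests on 3 libraries, and 10 genes lay within a distance of 0.2.

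AGO1, an Argonaute expressed in most tissues, lies on the plus strand of chromosome 1 (chr1:35869761-35930532). It reached 1588 counts in siCont against 1549 in siERRG2 and 626 in siERRG3. The first pair lay close together and siERRG3 stood far below both. The ratio to siCont was 0.964 (0.899 to 1.03) for siERRG2 and 0.388 (0.353 to 0.425) for siERRG3, a log2 fold change of -0.05 and -1.36. Between the ESRRG libraries AGO1 was 2.49-fold lower in siERRG3 (ratio 0.402, 0.366 to 0.441).

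AGO1 stands in a tandem array with AGO4, 11870 bases before it, and AGO3, 185 bases after it, all on the plus strand. AGO4 had 319, 320 and 274 counts, and its ratio in siERRG3 was 0.845 (0.716 to 0.996), short of the 1.2-fold threshold. AGO3 had 398, 456 and 423 counts, with ratios of 1.13 (0.988 to 1.30) and 1.05 (0.909 to 1.201). Neither was past the threshold in siERRG3. Within 250 kb of AGO1, 9 genes averaged at least 50 counts, these 2 included. Of the 9, 0 were at least 1.2-fold lower in siERRG3 and 3 were higher, where 25.1% and 23.2% of all kept genes were. Their log2 fold changes ran from -0.24 to 0.58. TEKT2, which overlaps AGO3 in the table's coordinates and fell below that mean, had 28, 14 and 18 counts. Its log2 fold change in siERRG3 was -0.61. Around DICER1 the same window held 1 gene averaging at least 50 counts. This was SYNE3, with 102, 88 and 65 counts and a log2 fold change of -0.66 in siERRG3. In the table's coordinates AGO1 and AGO3 overlap, and how reads in the shared stretch were divided between them is not given in the sources used here. DROSHA, XPO5, AGO2, TNRC6A, TNRC6B and TNRC6C also overlap other genes there, and the division of shared reads is likewise not given for them.

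AGO2, the Argonaute whose slicing activity carries out cleavage by a perfectly paired siRNA, lies on chromosome 8. It reached 2818 counts in siCont against 2855 in siERRG2 and 2992 in siERRG3. Its ratios to siCont were 1.002 (0.9504 to 1.06) and 1.04 (0.991 to 1.10), so no difference was detectable at this depth in either library. AGO2 and AGO1 have similar proteins but did not have similar values in siERRG3.

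The makeup of the Argonaute family differed in siERRG3, where AGO1 took a smaller share. The sum of the 4 genes was 25.54, 25.72 and 20.53 on the length-scaled scale of the authors, which behaves as FPKM. On that scale AGO1 made up 33.99%, 33.4% and 16.3% of the sum, and AGO2 37.7%, 37.8% and 49.2%. AGO3 and AGO4 supplied the rest, with AGO3 at 18.1%, 18.5% and 23.9%. As a share of the family's counts, AGO1 was at 31.0% in siCont (29.7 to 32.3), 29.9% in siERRG2 (28.7 to 31.2) and 14.5% in siERRG3 (13.5 to 15.6). AGO2 was at 55.01%, 55.1% and 69.3% of the counts, and AGO3 at 7.77%, 8.80% and 9.80%, far below its share per length. The summed Argonaute counts had a ratio to siCont of 0.9996 (0.962 to 1.04) for siERRG2 and 0.828 (0.795 to 0.863) for siERRG3.

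The TNRC6 proteins are scaffolds that bind Argonautes and recruit the deadenylases. TNRC6A (chromosome 16, chr16:24610205-24826218) reached 2259 counts in siCont against 1922 in siERRG2 and 2155 in siERRG3, so siERRG2 was the lowest. Its ratio there was 0.841 (0.791 to 0.894), just inside the 1.2-fold threshold, and 0.938 (0.884 to 0.996) in siERRG3. TNRC6B (chromosome 22, chr22:40044834-40335808) had 869, 1050 and 845 counts, so siERRG2 was the highest.

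The ratio of TNRC6B to siCont was 1.19 (1.09 to 1.31) for siERRG2 and 0.956 (0.869 to 1.05) for siERRG3. The value in siERRG2 was just inside the threshold, and TNRC6B passed it as higher when the libraries were scaled by their total counts or with the size factors of DESeq2. TNRC6C (chromosome 17, chr17:77957557-78108835) had 1248, 1243 and 1114 counts, with ratios of 0.985 (0.910 to 1.07) and 0.878 (0.809 to 0.952). In siERRG3 the TNRC6 genes thus lay nearer to siCont than AGO1 and DICER1, whereas in siERRG2 TNRC6A and TNRC6B, unlike AGO1, differed from it by more than counting error. TNRC6A and TNRC6B lay on opposite sides of siCont in siERRG2. The summed counts of all 3 TNRC6 genes had ratios to siCont of 0.952 (0.913 to 0.994) for siERRG2 and 0.924 (0.886 to 0.965) for siERRG3.

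When siERRG3 was set directly against siERRG2, 3 of the 10 genes were at least 1.2-fold lower (AGO1, DICER1 and TNRC6B) and 0 were higher. Over all kept genes 25.3% were lower and 26.4% higher, and over those in the same range of counts 25.1% and 20%. The median over the 10 genes was -0.14 and that over all kept genes 0.014. TNRC6B entered this count with a ratio of 0.800 (0.730 to 0.877), from 1050 counts in siERRG2 and 845 in siERRG3.

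Per length, the 10 genes spanned a 16.5-fold range in siCont, from TNRC6B at 2.41 to XPO5 at 39.83 on the FPKM-like scale. XPO5 and DROSHA (36.56) stood above the rest, followed by TNRC6A at 13.49, AGO2 at 9.62, DICER1 at 9.46, AGO1 at 8.68, TNRC6C at 6.93, AGO3 at 4.63 and AGO4 at 2.61. Neighbours in this order were separated by more than counting error except AGO2 and DICER1, DICER1 and AGO1, and AGO4 and TNRC6B. The order of the upper 4 genes was the same in every library, although XPO5 and DROSHA could not be told apart in siERRG2.

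In siERRG2 the order from AGO2 down was AGO2 at 9.73, AGO1 at 8.60, DICER1 at 7.64, TNRC6C at 6.73, AGO3 at 4.76, TNRC6B at 2.89 and AGO4 at 2.63. In siERRG3 DICER1 was at 4.30 and AGO1 at 3.35, both below TNRC6C (5.99) and AGO3 (4.90), with DICER1 and AGO3 overlapping in their intervals. The level of AGO3 depends on the length assumed. Its deposited value in siCont was 4.63, but its count per base of the 19660-base reference transcript gave 1.02, and AGO1 likewise had 8.68 and 5.83.

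**Figure D2:**
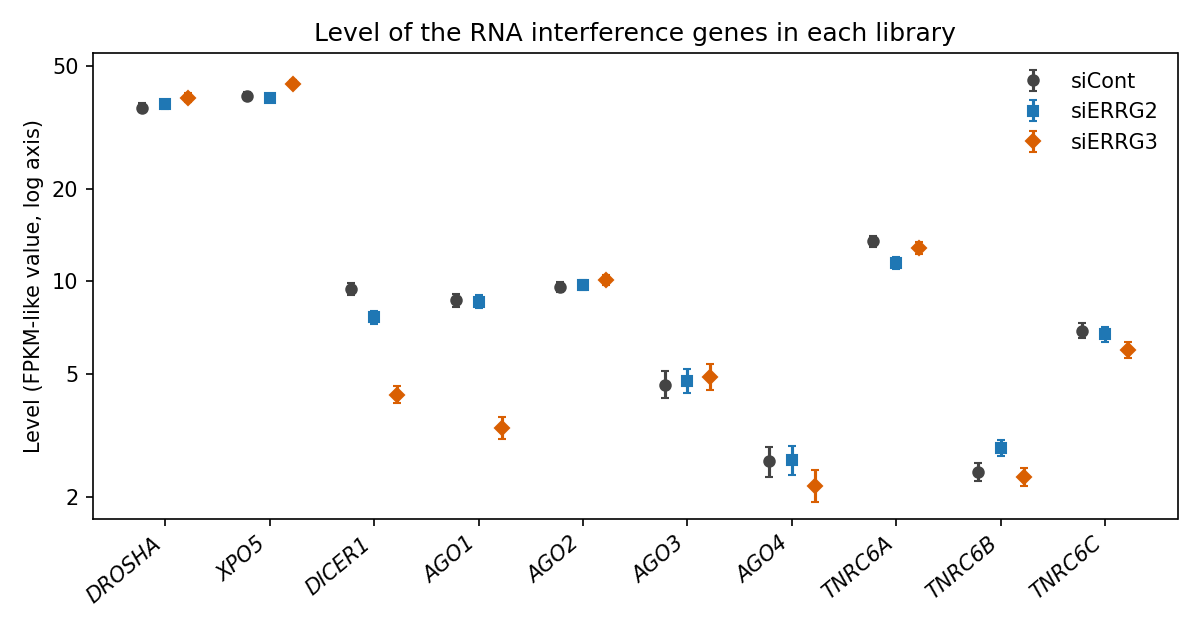
Level of each gene in the 3 libraries on the authors' length-scaled value, which behaves as FPKM (log axis). Bars are 95% Poisson intervals of the count carried onto the value. The siERRG3 points of DICER1 (4.30) and AGO1 (3.35) lie below those of the other libraries, while the points of most other genes lie close together.

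The genes of the machinery have long 3′ UTRs, the stretch after the coding sequence where most microRNA sites lie. In the reference transcripts 9 of the 10 were longer than the median of 1367.5 bases over 13296 genes. AGO3 (16755 bases), TNRC6B (12567), AGO2 (11888) and AGO1 (10925) were longer than at least 99.1% of genes, DICER1 had 4270 bases and DROSHA, the shortest, 938. AGO3, TNRC6B and AGO2, with the longest 3′ UTRs, were within 1.2-fold of siCont in siERRG3, whereas AGO1 was 2.58-fold lower. The part of 3′ UTR length in these values was not tested.

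The 3′ UTRs were then searched for 7-base words (heptamers) that went with a low value in siERRG3, a search chosen after the values were seen and reported without a test. Among the 15802 heptamers found in at least 100 of 10940 genes averaging at least 50 counts, AATCACA had the lowest median log2 fold change in siERRG3, -0.24 over 1619 genes, beside 0.01 over the genes without it. In siERRG2 the same genes had a median of 0.02, and the heptamer ranked 12867 from the lowest. The word shifted by 1 base, ATCACAA, had the third-lowest median in siERRG3, -0.20 over 1375 genes. Words unlike it lay at the same level over fewer genes, with CCGTACC at -0.21 over 125 and AACACGC at -0.20 over 172. Of the genes with AATCACA, 47.7% were at least 1.2-fold lower in siERRG3 and 13.3% in siERRG2, against 20.4% and 15.8% of the genes without it.

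AATCACA and ATCACAA together as 1 octamer went with the lowest values. The 524 genes with the octamer had a median of -0.31 in siERRG3, and 8.397% of them were at least 2-fold lower. The 1095 genes with AATCACA outside the octamer had a median of -0.20, the 658 with ATCACAA alone -0.14, and the 8663 with neither 0.02, of which 0.877% were at least 2-fold lower. Genes with AATCACA had longer 3′ UTRs (median 3373 bases) than the others (1201), and common words in general went with slightly lower values. The median over the 8748 heptamers found in at least 1000 genes was -0.06 in siERRG3, and the lowest of these that lacked the shared core ATCAC was at -0.13. The part of 3′ UTR length in the difference was not tested further. The study's siRNA list was available here only as text read from page images, whose letters can be wrong, and is not printed. As read there, the strand listed for siESRRG-2 ends in this octamer, so that the seed of its complementary strand would pair with it. Since no source says which library received that siRNA, the part of seed pairing in these medians was not tested.

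Over genes with 1, 2 and 3 or more matches of AATCACA the medians in siERRG3 were -0.23, -0.28 and -0.24. DICER1 was among the 66 genes with 3 or more. Its 3′ UTR held AATCACA at 3 places, at positions 253 and 2054 as the octamer, given here as 30-base windows of the GRCh37 reference in the sense of the transcript (minus strand), with the heptamer in capitals. They are shown because DICER1 and AGO1 are the genes whose values differ most.
DICER1, position 253 of the 3′ UTR, chr14:95556564-95556593: tgctttgtttaAATCACAagagtgctttaa
DICER1, position 607, chr14:95556210-95556239: gcatgttggtgAATCACAttttagttttct
DICER1, position 2054, chr14:95554763-95554792: tgatcaagtttAATCACAaatctcttaata

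AGO1, whose value in siERRG3 was lower still, held AATCACA nowhere in its reference transcript. It held the shifted word ATCACAA once, in capitals here, on the plus strand of chromosome 1.
AGO1, position 961 of the 3′ UTR, chr1:36386158-36386187: ctttttaaaagATCACAAcctcaagatggt

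As placed in the reference transcripts, the word did not separate the members by value. AGO3 held AATCACA at 2 places, outside the octamer, and AGO2 at 1, within it, and both were within 1.2-fold of siCont in siERRG3, with log2 fold changes of 0.06 each. The windows of AGO3 are shown for contrast with those of DICER1, from far into its 3′ UTR on the plus strand of chromosome 1.
AGO3, position 12180 of the 3′ UTR, chr1:36533515-36533544: tgggaaagaagAATCACAtgccacaagcta
AGO3, position 12333, chr1:36533668-36533697: tgccatttgtgAATCACAcaattgttcttt

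TNRC6A, TNRC6B and XPO5 held ATCACAA once each and AATCACA nowhere, and AGO4, DROSHA and TNRC6C held neither word. Outside the octamer, ATCACAA was also found at 2 places in AGO3 and at 1 in DICER1. The length implied by the deposited count and level of AGO3 in siCont was 4332 bases, against 19660 in its reference transcript. For DICER1 these lengths were 10474 and 10384 bases. Whether the 3′ UTR of AGO3 used in H128 cells reaches the positions of its matches was not tested. A match is a description of the reference sequence, and the libraries do not measure binding of a small RNA to it.

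The deposited table also assigns genes to 221 sets by a microRNA motif in their 3′ UTR. TNRC6B was in 54 of them, AGO1 in 33, TNRC6A in 17, AGO2 and DICER1 in 14 each, AGO4 in 10, XPO5 in 4 and AGO3 in 2, while DROSHA and TNRC6C were in 0. AGO1 and DICER1 shared 7 sets, 21.2% of those of AGO1 and 50% of those of DICER1. One of the shared motifs, ATGCTGC, belongs to miR-103 and miR-107, a family known for targeting DICER1, and the set also holds AGO4 and TNRC6B. Mature sequences from RefSeq are shown for 2 of the shared motifs, with the seed (bases 2 to 8) in capitals, to show what these motifs pair with.
hsa-miR-103a-3p: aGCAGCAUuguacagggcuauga
hsa-miR-107: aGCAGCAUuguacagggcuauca
hsa-miR-19a-3p: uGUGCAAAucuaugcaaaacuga
hsa-miR-19b-3p: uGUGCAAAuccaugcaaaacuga

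The first pair share the seed GCAGCAU and the second pair the seed GUGCAAA, whose motif TTTGCAC is found in AGO1, DICER1, TNRC6A and TNRC6B. The 199 kept genes of the ATGCTGC set had a median log2 fold change of 0.03 in siERRG2 and -0.11 in siERRG3, and the 471 of the TTTGCAC set 0.0029 and -0.08. Over all 7 shared sets the medians in siERRG3 lay between -0.12 and -0.07, beside -0.05 over the 6350 genes in any microRNA motif set and 0.04 over the 7681 in none. MicroRNAs themselves were not measured in these libraries.

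ERRγ binds a motif of which TCAAGGTCA is the extended form and AAGGTCA the core. In windows from 250 bases before to 50 after each gene start, on both strands, the extended form was present in 0.353% and the core, which it contains, in 3.92% of 35116 windows. Of the 16 windows of 9 of the 10 genes, 0 held either form. This says only that these letters are not in these windows.

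A list of 95 further genes of small RNA pathways was also examined, of which 94 were in the table and 91 were kept. In both ESRRG libraries 5 were at least 1.2-fold lower and 2 higher, where 7.88% and 7.26% of all kept genes were. In siERRG2 11 of the 91 were lower and 5 higher, where 19.2% and 16.4% of all kept genes were, and in siERRG3 17 were lower and 11 higher, where 25.1% and 23.2% were. Each of these 4 counts was below its background share. Their medians on the log2 scale were 0.0023 and -0.01, over genes that differed in both directions.

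The genes lower in both came from several steps. PAN2, the catalytic subunit of a deadenylase, reached 759 counts in siCont against 503 in siERRG2 and 452 in siERRG3. CNOT6, a catalytic deadenylase of the CCR4-NOT complex that TNRC6 proteins recruit, had 1483, 1046 and 1052. TSNAX, a subunit of the endonuclease that clears the passenger strand from an Argonaute, had 452, 344 and 376, and the adenosine deaminase ADARB1, an editor of double-stranded RNA, had 844, 699 and 611.

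The remaining gene lower in both was LIN28A, at 22, 13 and 12 counts, with intervals that include 1 in both libraries (0.270 to 1.21 and 0.242 to 1.13). LIN28B, its paralog and an inhibitor of let-7 processing, was higher in both, with 590, 770 and 870 counts. The other gene higher in both, WTIP, had 5, 10 and 7 counts. LIN28A and WTIP fell below the mean of 50 counts required for naming and were named after their values were seen.

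Among the 9 genes of primary microRNA processing, the step of DROSHA, 0 passed the threshold in either library, against the same background shares of 19.2% lower and 16.4% higher in siERRG2 and 25.1% and 23.2% in siERRG3. DGCR8, the partner of DROSHA in the Microprocessor, had 1238, 1243 and 1102 counts. Among the 14 genes of Dicer partners and Argonaute loading, 3 were lower and 0 higher in siERRG2, and 1 was lower and 5 were higher in siERRG3, where 23.2% of all kept genes were higher. The 5 are named after their values were seen, and other chaperone genes of the group, HSP90AA1, HSP90AB1, FKBP4, FKBP5 and DNAJA2, did not pass the threshold in siERRG3. HSPA8 had 69986, 69971 and 96153 counts, HSPA4 had 4244, 4395 and 5670, PTGES3 had 12437, 10389 and 15657, AHSA1 had 3271, 3959 and 4048, and STIP1 had 8343, 8870 and 10496. PTGES3 lay below siCont by 1.2-fold in siERRG2 and above it in siERRG3.

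Of the 16 deadenylation genes 3 were lower in siERRG2 and 5 in siERRG3, with 0 and 1 higher. The 12 decapping and decay genes held 1 lower in each library and 0 higher. With 19.2% and 25.1% of all kept genes lower, the lower deadenylation counts were near the background and the lower decapping counts below it. With 16.4% and 23.2% of all kept genes higher, the higher counts of both groups were below the background. The PIWI Argonautes, which serve the germline, were low, with PIWIL2 at 14, 14 and 19 counts, PIWIL3 at 7, 7 and 9 and PIWIL4 at 24, 17 and 32. PIWIL1 was not analysed here.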

How the data were processed

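RNA of H128 cells was measured in 3 libraries, 1 per condition, grouped by the labels' titles. The authors deposited 1 table of genes. Per its header, the deposited values are estimated counts that the authors left without normalization, and 54.5%, 54.9% and 54.0% of them were whole in siCont, siERRG2 and siERRG3. The authors' second deposited value behaves as FPKM, although its unit is not named. Columns of the authors' own log2 ratios, p-values and adjusted p-values against siCont were not used. The methods name BWA, Bowtie 2 and GRCh37/hg19. The submitters' processing notes list TopHat2, HTSeq, DESeq2, GRCh38, hg19 and hg38 without a role, and the table's coordinates are on GRCh38. The counting program and annotation, and whether counting used strand, are not given in the sources used here. The labels state paired-end sequencing and a directional kit, the methods single-end sequencing. The table's strand column reads plus for 2920 of 13693 compared genes that RefSeq places on minus, so strands are from RefSeq.

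Counts were rounded to whole numbers, and the filter required 10 counts in at least 1 library. Libraries were scaled with the TMM factors of edgeR 4.0.16 (0.994, 1.003 and 1.003) in R 4.3.3. Fold changes are differences of log2 CPM (prior count 2), and genes were called at 1.2-fold. Intervals of ratios are 95% Clopper-Pearson intervals from SciPy 1.17.1, and those of levels are Poisson intervals. Both cover counting error only. At these totals AGO4 with 319 counts had an interval of 0.847 to 1.16 in siERRG2 and XPO5 with 4291 one of 0.936 to 1.02. The calling at 1.2-fold was tested on simulated counts with known changes, scaled by library totals and not by TMM. The 10 genes and the lists were chosen with earlier results of these data known.

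The genes named are the 10 genes in every library, ESRRG, the PIWI genes, DGCR8, TARBP2 and PRKRA, the genes of the wider list past 1.2-fold in the same direction in both ESRRG libraries that averaged at least 50 counts, the 3 genes nearest to the member with the largest mean absolute log2 fold change, and overlapping neighbours. Gene coordinates are those of RefSeq (GRCh38.p14), and 3′ UTRs are from the GENCODE v44 annotation lifted to GRCh37, with 1 canonical transcript per gene. Promoter windows and mature microRNAs are from RefSeq. Alternatives were scaling by total counts or with DESeq2 1.42.0, the FPKM-like value with a pseudocount of 0.1, another prior count (0.5), dropping the filter, requiring a mean of at least 50 counts, and a 1.5-fold threshold.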

Additional observations from a re-analysis of the deposited data

How the results depend on the processing

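With 1 library per condition no result has a replicate check, and depth limits AGO3 and AGO4 most, with 274 to 456 counts. No paired analysis was possible because each condition has 1 library. Of the values answering a comparison, 7 moved and 84 did not, and the values of the 10 single genes stayed within their counting intervals under every alternative run. Genes of the 10 higher in siERRG2 numbered 1 with total counts and 1 with DESeq2 size factors instead of 0. At a 1.5-fold threshold, 0 of the 10 were lower in siERRG2 and 0 in both ESRRG libraries instead of 1 each, while 2 genes of the wider list were lower in both instead of 5 and 0 higher instead of 2. With a mean of at least 50 counts 1 gene of the wider list was higher in both. Per base of the reference transcript, 41 of 45 pairs of the 10 genes kept their order of level in siCont, 41 in siERRG2 and 40 in siERRG3. Alternatives for the heptamer were chosen after seeing the data: its median in siERRG3 was -0.24 over 1027 genes averaging at least 500 counts, and smaller in size, -0.11, over 912 genes with the heptamer only before the 3′ UTR.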
